A study of Mus musculus with 8 samples.

Results

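The genes described here are 10 glutathione transferases, Gsta3, Gsta4, Gstm1, Gstm2, Gstm5, Gstt1, Gstt3, Gstp1, Gsto1 and Mgst1, taken by symbol from a table of 25509 mouse genes. RNA was sequenced from 8 libraries of flow-sorted lung cells from 4 wild-type C57Bl6/J mice, numbered 2, 7, 8 and 10, with 4 libraries in each of 2 groups. Cells negative for CD45, CD326 and CD31, which the labels call fibroblasts, were divided by the surface protein CD249 (glutamyl aminopeptidase, product of Enpep) into a CD249+ and a CD249- fraction, with equal cell numbers taken from each lung. No treatment, age or sex is given in the labels, and the fractions of a mouse share a lung and a digestion, so the comparison asks which transferase transcripts differ between 2 sorted fractions of lung cells.

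Glutathione transferases join the thiol of glutathione to electrophilic compounds, among them oxidised lipids, drug metabolites and environmental chemicals, and so make them water-soluble and ready for export. The cytosolic enzymes form classes named by Greek letters (alpha, mu, pi, theta, omega, zeta), each with its own range of substrates, and the microsomal enzymes are an unrelated membrane family with the same chemistry. Several of their genes are textbook targets of NRF2 (product of Nfe2l2), which binds antioxidant response elements, and lung is among the tissues where inhaled electrophiles make the pathway of interest.

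Promoter windows were available in RefSeq (GRCm38.p6) for 9 of the 10 genes, all except Gsta4. Whether matches in them bear on the differences between the fractions was not tested. Windows of 300 bases were searched on both strands for the core of the antioxidant response element, TGACNNNGC, and for the AP-1 site, TGANTCA. The element core was present in 12.4% of all 32851 windows of this length and the AP-1 letters in 7.81%. The 4 genes with a match are printed 5′ to 3′ on the strand of the gene, as the 250 bases before the start site, with matched letters in capitals. The windows are Gsta3 chr1:21240335-21240584 (+), Gstm5 chr3:107895604-107895853 (+), Mgst1 chr6:138140277-138140526 (+) and Gstp1 chr19:4037913-4038162 (-).
Gsta3: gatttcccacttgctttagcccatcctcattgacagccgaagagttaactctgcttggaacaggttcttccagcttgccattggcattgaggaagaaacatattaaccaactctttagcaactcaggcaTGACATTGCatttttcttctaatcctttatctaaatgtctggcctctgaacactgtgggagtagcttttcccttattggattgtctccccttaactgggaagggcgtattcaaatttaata
Gstm5: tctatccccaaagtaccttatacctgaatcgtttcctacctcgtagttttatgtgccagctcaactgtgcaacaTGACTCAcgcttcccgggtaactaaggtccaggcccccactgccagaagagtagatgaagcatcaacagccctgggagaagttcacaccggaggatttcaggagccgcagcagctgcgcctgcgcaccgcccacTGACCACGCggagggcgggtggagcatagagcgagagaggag
Mgst1: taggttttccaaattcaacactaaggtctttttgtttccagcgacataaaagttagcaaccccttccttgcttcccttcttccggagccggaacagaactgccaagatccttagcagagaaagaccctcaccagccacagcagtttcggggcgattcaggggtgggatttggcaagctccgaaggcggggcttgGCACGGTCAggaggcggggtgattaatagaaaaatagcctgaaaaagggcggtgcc
Gstp1: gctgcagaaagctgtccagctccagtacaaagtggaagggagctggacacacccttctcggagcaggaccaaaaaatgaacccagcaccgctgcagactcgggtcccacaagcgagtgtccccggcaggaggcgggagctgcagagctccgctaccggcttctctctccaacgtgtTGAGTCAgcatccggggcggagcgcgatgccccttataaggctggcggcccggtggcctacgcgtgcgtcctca
In Gsta3 the capitals mark an element core starting at position -121 from the start site. Gstm5 has an AP-1 match at -176 and an element core at -42, which do not overlap. In Mgst1 the core lies on the opposite strand, with its leftmost base at -56, and in Gstp1 the capitals mark an AP-1 match at -74. Start sites here are those of RefSeq and can differ from the ends of the gene coordinates given further on. Most of the printed Mgst1 window, with its core, lies inside the gene span chr6:138140316-138156755. A later Mgst1 window, chr6:138141337-138141586, held no match. No match to either motif was found in the windows of Gstm1, Gstm2, Gstt1, Gstt3 and Gsto1. Binding was not measured, and a match describes letters only.

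Total estimated counts per library ran from 23011383 to 31906414. Enpep itself was at 5.13 to 17.3 CPM (counts-per-million units, scaled to library totals with edgeR's TMM factors) in the CD249- libraries and at 175 to 329 CPM in the CD249+ libraries, which matches the sort. All 13 alveolar fibroblast markers tested were higher in CD249+, with a summed level of 925 to 1399 CPM in CD249- and 7616 to 14416 CPM in CD249+, and so were 10 of 12 smooth muscle and myofibroblast and 11 of 12 pericyte markers. Endothelial markers were present although CD31-positive cells had been sorted away: all 18 were lower in CD249+, and their sum was 20548 to 26601 CPM in CD249- and 6449 to 12102 CPM in CD249+. Pecam1, which encodes CD31, was at 1667 ± 248 CPM (SD, n = 4) in CD249- and 611 ± 239 CPM in CD249+, which goes against the sort. Of 14 alveolar epithelial markers, 5 were higher and 1 lower in CD249+ (7 and 1 with the mouse as a block). Most of the calls were in the direction of the transferases, as were those of the alveolar fibroblast, smooth muscle and pericyte markers. Their sum was 585, 462, 579 and 1173 CPM in CD249- and 733, 846, 1361 and 11127 CPM in CD249+ for mice 2, 7, 8 and 10, higher in CD249+ in 4 of 4 mice. Of 20 leukocyte marker rows tested, 2 were lower in CD249+ without the block and 12 with it (median log2 -0.75), and their sums ran from 3037 to 5295 CPM in CD249- and from 2170 to 4485 CPM in CD249+, lower in 3 of 4 mice. Ptprc, which encodes CD45, was lower only with the block (adjusted p = 0.0635 without it and 0.0126 with it). Adventitial fibroblast markers were mixed, with 4 of 14 higher and 4 lower and sums of 7561 to 9357 CPM in CD249- and 5903 to 9356 CPM in CD249+. Of 8 airway epithelial markers tested, 0 were higher and 2 lower (1 and 2 with the block). Their sums were 241 to 421 CPM in CD249- and 281 to 612 CPM in CD249+. Of 10 mesothelial markers, 1 was higher and 5 lower, and of 9 red cell and platelet markers tested, 0 were higher and 4 lower. Of all the markers listed, Ly6h alone was at 0 in every library. In bulk RNA, fewer cells of a type and less RNA per cell cannot be told apart, and the part of this mixture in the results that follow was not tested.

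Of the 10 transferases, 8 were higher in CD249+ by edgeR's quasi-likelihood test at a Benjamini-Hochberg adjusted p under 0.05 and 2 (Gstm1 and Gstp1) did not pass, but on the scale of 8 core collagen genes only Gsta3 stayed higher and 5 were lower, as described further on. Across all 14524 genes tested, 16.9% were called higher and 13.9% lower, and on the collagen scale 2.38% were higher and 80.3% lower. The median log2 fold change was 1.03 over the 10 members and -0.02 over all genes tested. The count was 9 with DESeq2 (18.2% of all genes tested) and with the mouse as a block (19.3%), and 8 with limma-voom (17.1%). No member was lower by any of these tests or at an unadjusted p under 0.05. With TMM scaling all 10 had a higher level in CD249+ in 4 of 4 mice. For Gstp1 this was only barely so in mice 2 and 8 (ratios of 1.00 and 1.02), and an order that close depends on the scaling. All 4 CD249+ libraries lay above all 4 CD249- libraries for 8 members, against 17.8% of all genes tested. The members were chosen with earlier results of these data known, so their contrast with all genes is a description and not a test. Of 9 other tested genes of the transferase classes, 4 were higher, 1 was lower and 4 did not pass.

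**Figure D1:**
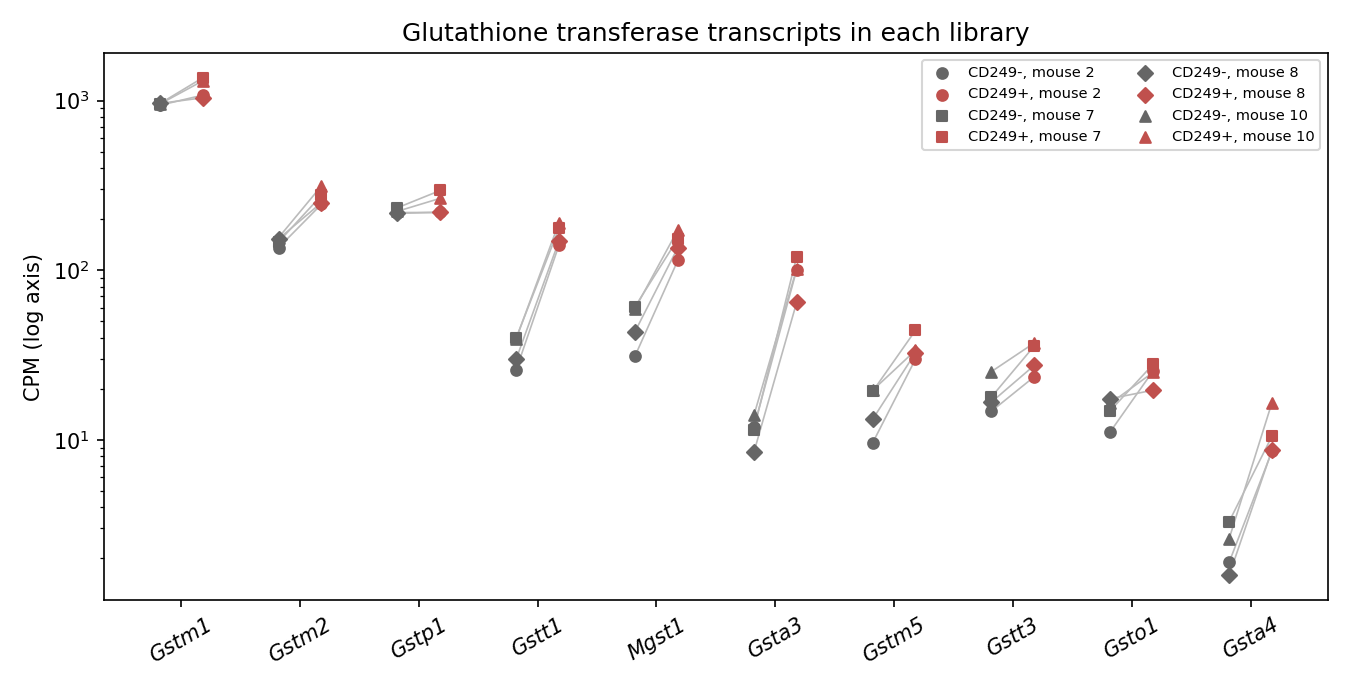
Level of each of the 10 transferases in CPM (log axis) in every library, grey for CD249- and red for CD249+, with 1 symbol per mouse and lines joining the fractions of a mouse. The CD249+ values of Gsta3 (64.5 to 120.0 CPM) lie far above its CD249- values (8.43 to 13.9 CPM) while those of Gstp1 overlap. On the core collagen scale Gstm1, Gstm2, Gstt3, Gstp1 and Gsto1 turn lower, as do 80.3% of all genes tested.

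The alpha class showed the steepest difference. Gsta3 (ENSMUSG00000025934.15, chr1:21240589-21265661, plus strand, GRCm38), known for detoxifying aflatoxin epoxide in mouse, was at 11.8, 11.5, 8.43 and 13.9 CPM in the CD249- libraries of mice 2, 7, 8 and 10. In their CD249+ libraries it reached 100.5, 120.0, 64.5 and 101.7 CPM. The groups did not overlap, and the lowest CD249+ library, that of mouse 8, came from the mouse that was also lowest in CD249-. The fold change was 8.46 (log2 3.08, SE 0.22, adjusted p = 1.07e-05 by edgeR), and the ratio within a mouse ran from 7.31 to 10.4. Gsta3 was the only member that kept its call and direction under all 22 other ways of fitting the data, with a log2 fold change of 1.26 (adjusted p = 0.00275) on the collagen scale.

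Gsta4 (ENSMUSG00000032348.5, chr9:78182774-78209349, plus strand), which conjugates the lipid peroxidation product 4-hydroxynonenal, was the least abundant member. It was at 1.89, 3.29, 1.59 and 2.61 CPM in CD249- and at 8.53, 10.5, 8.67 and 16.5 CPM in CD249+, again for mice 2, 7, 8 and 10. The groups did not overlap, and mouse 10 stood highest among the CD249+ libraries. Gsta4 rose 4.70-fold (log2 2.23, SE 0.33, adjusted p = 0.00081). On the collagen scale the log2 difference was 0.40 and did not pass (adjusted p = 0.442). Gsta1 and Gsta2, the other alpha genes listed, were too low to be tested. Summed over the class, alpha transcripts stood at 14.0 ± 2.93 CPM in CD249- and 108 ± 24.7 CPM in CD249+ (SD, n = 4), 7.70-fold apart (adjusted p = 1.26e-05 by edgeR).

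The theta class, whose enzymes act on small halogenated and other compounds, came next. Gstt1 (ENSMUSG00000001663.10, chr10:75783813-75798584, minus strand) was at 25.9, 39.9, 29.9 and 39.5 CPM in CD249- and at 141, 177, 149 and 191 CPM in CD249+. The groups stood far apart, and the ratio within a mouse was narrow, from 4.43 to 5.43. Gstt1 rose 4.86-fold (log2 2.28, SE 0.17, adjusted p = 1.31e-05). On the collagen scale it was 0.47 higher in log2, which did not pass (adjusted p = 0.205).

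Its neighbour on chromosome 10, Gstt3 (ENSMUSG00000001665.10, chr10:75774115-75781414, minus strand), differed less. Values were 14.7, 17.9, 16.7 and 25.2 CPM in CD249- and 23.5, 35.8, 27.5 and 37.2 CPM in CD249+. The groups overlapped, because mouse 10 had a higher CD249- level than the CD249+ level of mouse 2, although CD249+ was higher within each mouse. Gstt3 rose 1.66-fold (log2 0.73, SE 0.21, adjusted p = 0.0227 by edgeR), and it also passed with the mouse as a block (log2 0.74, SE 0.13, adjusted p = 0.00245). Without the block, the call was lost on leaving out any of 5 single libraries (CD249- of mouse 2, 7 or 8, adjusted p 0.0588, 0.0566 and 0.0614, and CD249+ of mouse 7 or 10, 0.0649 and 0.0672). It was also lost on leaving out mouse 7 (0.128) or mouse 8 (0.0825) altogether. The ratio of Gstt1 to Gstt3 in CPM was 1.76, 2.23, 1.80 and 1.56 in CD249- and 5.98, 4.95, 5.43 and 5.12 in CD249+, and this ratio within a library does not depend on the scaling. Gstt3 shares 25.0% of its 75-base windows with the overlapping gene Gm20441, which averaged 0.679 CPM in CD249- and 1.77 CPM in CD249+. Gstt2, the third theta gene tested, was at 20.7 ± 1.58 CPM in CD249- and 16.4 ± 1.51 CPM in CD249+ and did not pass (log2 -0.34, adjusted p = 0.0798).

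The mu class held most of the transcripts. Gstm1 (ENSMUSG00000058135.12, chr3:108012255-108017973, minus strand), a broad-range conjugating enzyme, was at 938, 959, 962 and 953 CPM in CD249- and at 1076, 1361, 1038 and 1305 CPM in CD249+. The CD249- libraries were nearly level, while the CD249+ libraries formed a low pair (mice 2 and 8) and a high pair (mice 7 and 10), all above CD249-. The 1.25-fold difference (log2 0.33, SE 0.12) did not pass by edgeR (adjusted p = 0.0689). With the mouse as a block the same difference passed (log2 0.32, adjusted p = 0.0217), as it did with DESeq2 (adjusted p = 0.0131), on leaving out the CD249+ sample from mouse 2 (log2 0.39, adjusted p = 0.0373), and on leaving out both samples from that mouse (adjusted p = 0.0437). On the collagen scale Gstm1 was lower in CD249+ (log2 -1.55, adjusted p = 0.000319).

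Gstm2 (ENSMUSG00000040562.12, chr3:107981702-107986453, minus strand), a close relative in the same cluster, was at 136, 147, 153 and 156 CPM in CD249- and at 244, 276, 249.9 and 314 CPM in CD249+. The groups stood well apart, mouse 2 was lowest in both, and mouse 10 was highest in both. Gstm2 rose 1.83-fold (log2 0.87, SE 0.10, adjusted p = 0.000233), and fell on the collagen scale (log2 -0.98, adjusted p = 0.0145). Gstm5 (ENSMUSG00000004032.10, chr3:107895821-107898686, plus strand), a mu enzyme best known from brain and testis, was at 9.60, 19.3, 13.2 and 19.6 CPM in CD249- and at 29.9, 44.1, 32.6 and 33.7 CPM in CD249+. The groups did not overlap, mouse 2 was lowest in both, and the ratio within a mouse ran from 1.72 (mouse 10) to 3.11 (mouse 2). Gstm5 rose 2.27-fold (log2 1.18, SE 0.23, adjusted p = 0.00389), with a log2 difference of -0.58 on the collagen scale that did not pass (adjusted p = 0.117).

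The remaining mu genes pointed the same way where tested. Gstm7 went from 4.70 to 14.0 CPM on average (log2 1.58, adjusted p = 0.00915) and Gstm4 from 9.62 ± 3.21 to 24.2 ± 4.80 CPM (log2 1.33, adjusted p = 0.00387), but on the collagen scale their log2 differences were -0.31 and -0.42 and neither passed. Gstm6 was called only marginally (1.07 to 2.81 CPM, adjusted p = 0.0465) and was not called with the mouse as a block (adjusted p = 0.0605) or without any 1 of the 8 libraries (0.0566 to 0.112). Gstm3 was too low to be tested. Summed, the class stood at 1132 ± 25.2 CPM in CD249- and 1542 ± 199 CPM in CD249+ (log2 0.45, SE 0.12, adjusted p = 0.0205 by edgeR), a value set largely by Gstm1. Among the members, Gstm1 shares 14.8% of its 75-base windows with Gstm3 and 2 pseudogenes, and Gstm2 shares 3.13% with a pseudogene. Gstm5 shares 11.9% with an antisense transcript. Reads of that transcript from the shared windows cannot be told from those of Gstm5, since the library kit does not mark strand. Apart from Gstm3, these partners have no counts under their symbols.

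Gstp1 (ENSMUSG00000060803.5, chr19:4035407-4037985, minus strand), the pi enzyme, which is often raised in tumours and prominent in epithelia, showed the smallest difference. It was at 219, 233, 216 and 222 CPM in CD249- and at 219, 295, 220 and 265 CPM in CD249+. Mice 2 and 8 had almost equal levels in both fractions, with ratios of 1.00 and 1.02, while mice 7 and 10 had ratios of 1.26 and 1.19, so the groups overlapped. The difference did not pass (log2 0.17, SE 0.11, adjusted p = 0.307 by edgeR), nor with the mouse as a block (adjusted p = 0.184), and on the collagen scale Gstp1 was lower in CD249+ (log2 -1.71, adjusted p = 0.000145). Gstp1 shares 57.7% of its 75-base windows with Gstp2 or a pseudogene, so the division of reads among them is uncertain. The pseudogene has no counts under its symbol. Gstp2 was at 5.21 and 8.90 CPM on average and did not pass (log2 0.77, adjusted p = 0.22), but did with the mouse as a block (adjusted p = 0.0244). The pi genes summed gave a log2 difference of 0.18 (adjusted p = 0.278).

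Gsto1 (ENSMUSG00000025068.7, chr19:47854970-47864790, plus strand), an omega enzyme that acts more as a thiol transferase and dehydroascorbate reductase than as a conjugating enzyme, was at 11.2, 14.8, 17.5 and 16.4 CPM in CD249- and at 25.5, 27.9, 19.6 and 25.0 CPM in CD249+. The groups did not overlap, but mouse 8 had the highest CD249- and the lowest CD249+ value and a ratio of only 1.12, against 2.28 in mouse 2. Gsto1 rose 1.63-fold (log2 0.71, SE 0.18, adjusted p = 0.0126), a call lost without mouse 7 (adjusted p = 0.0814) or mouse 10 (adjusted p = 0.0519), and it fell on the collagen scale (log2 -1.08, adjusted p = 0.00728).

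Mgst1 (ENSMUSG00000008540.11, chr6:138140316-138156755, plus strand) encodes the microsomal transferase of the endoplasmic reticulum and outer mitochondrial membrane, which also reduces lipid peroxides. Its level was 31.2, 60.9, 43.5 and 59.3 CPM in CD249- and 114, 153, 136 and 173 CPM in CD249+. The groups did not overlap, and within both fractions mice 2 and 8 were lower than mice 7 and 10. Mgst1 rose 2.95-fold (log2 1.56, SE 0.22, adjusted p = 0.000512), with a log2 difference of -0.23 on the collagen scale that did not pass (adjusted p = 0.535). Of the genes of the same membrane family, Ptges was also higher and is described further on. Mgst3 fell from 34.4 ± 5.20 to 21.4 ± 2.59 CPM (log2 -0.68, adjusted p = 0.00556), and Mgst2, at 3.36 and 2.00 CPM, did not pass (adjusted p = 0.258).

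**Figure D2:**
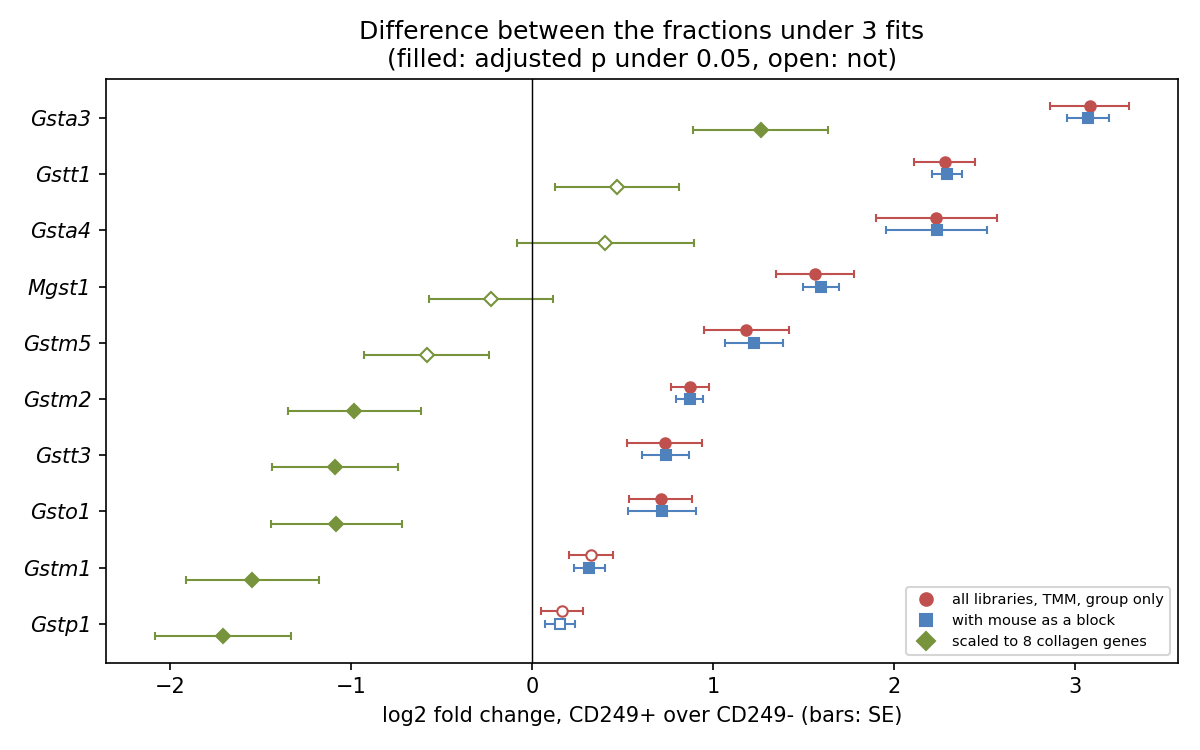
Log2 fold change (CD249+ over CD249-) of each transferase with its standard error in 3 edgeR fits, with TMM scaling, with the mouse as a block, and scaled to 8 core collagen genes; filled symbols passed an adjusted p under 0.05. With TMM the values run from 0.17 (Gstp1) to 3.08 (Gsta3). On the collagen scale they run from -1.71 (Gstp1) to 1.26 (Gsta3), with 7 of 10 below 0, against a median of -1.88 over all genes tested.

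The scaling bears on the size of the differences given here and on many of their directions. On the core collagen scale, 24 of the 47 genes refitted in other ways changed direction, but Gsta3, Gsta4 and Gstt1 did not. The 8 core collagen genes were all higher in CD249+ (median log2 1.52), and their summed level ran from 4225 to 10791 CPM in CD249- and from 14073 to 24860 CPM in CD249+. Setting the geometric mean of these genes equal in every library moved the median of all genes from -0.02 to -1.88, a shift of -1.85. It also widened the standard errors of the 10 members, for example from 0.12 to 0.37 for Gstm1 and from 0.17 to 0.34 for Gstt1. A member that did not pass on that scale can therefore reflect wider spread as well as a smaller difference. On that scale Gsta3 was higher (2.38% of all genes were), Gstm1, Gstm2, Gstt3, Gstp1 and Gsto1 were lower (80.3% of all genes were), and Gsta4, Gstm5, Gstt1 and Mgst1 did not pass. With library totals alone, 8 members were called higher (14.5% of all genes were), beside 2106 genes called higher and 2689 lower in all, against 2455 and 2013 with TMM. With sign, Gsta3 had the highest and Gstp1 the lowest log2 difference of the 10 under each of these scalings.

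Ordered by level per kilobase of the longest coding transcript, the CD249- libraries ran from Gstm1 (739 ± 8.36 CPM per kb, SD, n = 4) through Gstp1 (271 ± 9.26), Gstm2 (139 ± 8.29), Mgst1 (41.8 ± 12.1), Gstt1 (30.6 ± 6.33), Gstm5 (16.3 ± 5.15), Gsto1 (12.7 ± 2.34), Gstt3 (9.92 ± 2.44) and Gsta3 (7.83 ± 1.55) to Gsta4 (2.40 ± 0.781). The ranges of Mgst1 and Gstt1 overlapped, as did those of each adjacent pair from Gstm5 to Gsta3. In CD249+ the order was Gstm1 (927 ± 125 CPM per kb), Gstp1 (304 ± 45.2), Gstm2 (255 ± 29.7), Gstt1 (149 ± 21.2), Mgst1 (123 ± 21.4), Gsta3 (66.4 ± 16.0), Gstm5 (37.1 ± 6.61), Gsto1 (20.7 ± 2.95), Gstt3 (16.5 ± 3.50) and Gsta4 (11.3 ± 3.84). Gsta3 moved from position 9 to position 6, while Gstm1 stayed first and Gsta4 last. Overlapping neighbours in CD249+ were Gstp1 with Gstm2, Gstt1 with Mgst1, Gsta3 with Gstm5, Gsto1 with Gstt3, and Gstt3 with Gsta4.

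The shares of the 10 genes within a library do not depend on the scaling. Gstm1 made up 64.9% ± 1.81 (SD, n = 4) of the 10 genes' counts in CD249- and 53.8% ± 0.692 in CD249+, and Gstp1 made up 15.2% ± 0.461 and 11.2% ± 0.436. Gstt1 went from 2.29% ± 0.402 to 7.39% ± 0.357, Mgst1 from 3.30% ± 0.857 to 6.47% ± 0.633, and Gsta3 from 0.777% ± 0.149 to 4.33% ± 0.783. The ratio of Gsta3 to Gstp1 in CPM was 0.0541, 0.0492, 0.0390 and 0.0626 in CD249- and 0.459, 0.407, 0.294 and 0.384 in CD249+, with no overlap. The sum of the 10 genes, which does depend on the scaling and is mostly Gstm1, was 1399, 1507, 1462 and 1508 CPM in CD249- and 1982, 2500, 1945 and 2462 CPM in CD249+, where mice 7 and 10 were the high pair. In deviations from the fraction means over the 8 libraries, the closest pairs of members were Gstt1 with Mgst1 (Pearson r = 0.977) and Gstm1 with Gstp1 (r = 0.955), points that share library, mouse and depth.

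**Figure D3:**
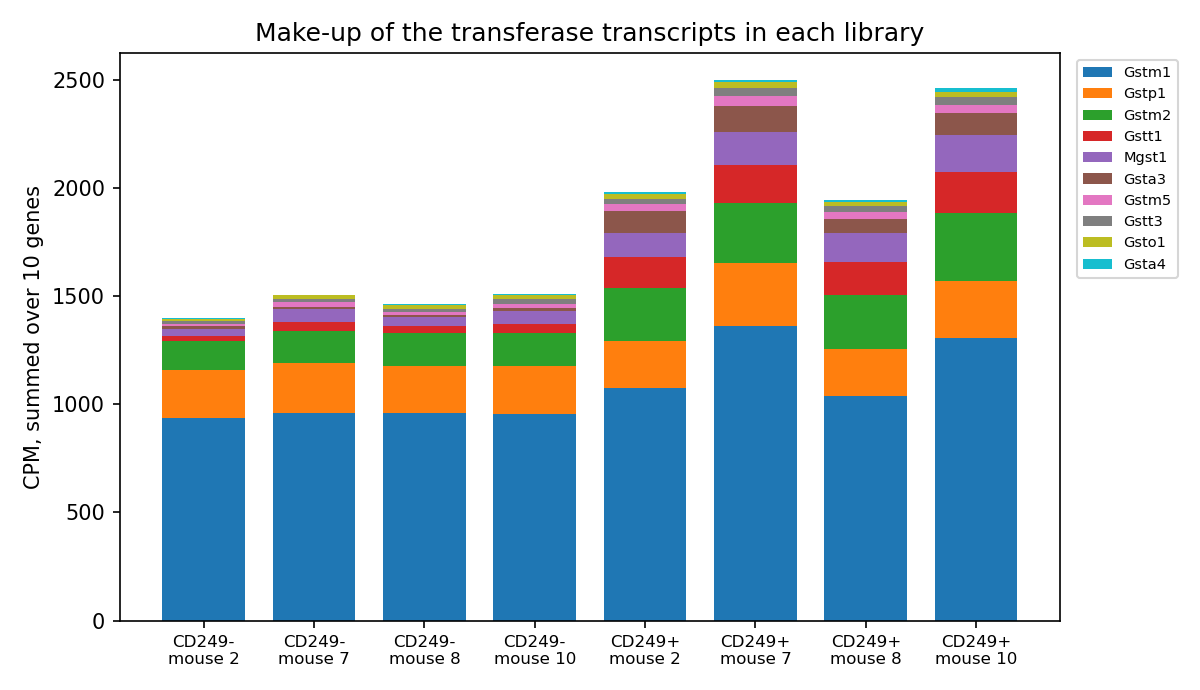
CPM of the 10 transferases stacked in each of the 8 libraries, 1 colour per gene. Gstm1 is the largest part of every bar, the parts of Gstt1, Mgst1 and Gsta3 are wider in the 4 CD249+ libraries, and the CD249+ bars of mice 7 (2500 CPM) and 10 (2462 CPM) are the tallest.

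Among 15 further genes of the transferase classes, 9 could be tested: 4 were higher in CD249+ (Gstm4, Gstm6, Gstm7 and Gstk1), 1 was lower (Mgst3) and 4 did not pass. Of all genes tested, 16.9% were higher and 13.9% lower. On the collagen scale, where the median of all genes was -1.88, all 4 of the higher genes had negative differences. Gstk1, the kappa enzyme of mitochondria and peroxisomes, went from 27.2 ± 1.05 to 54.1 ± 7.39 CPM (log2 0.99, adjusted p = 0.000202; -0.87 on the collagen scale). Gstz1, the zeta enzyme of tyrosine breakdown, was at 12.7 and 19.7 CPM and did not pass (adjusted p = 0.106), but did with the mouse as a block (0.0433) and without the CD249- library of mouse 10 (0.0174). Of 15 tested relatives with a transferase-like fold or membrane domain, 2 were higher and 3 lower, beside the same 16.9% and 13.9% of all genes. Ptges, the membrane-bound prostaglandin E synthase, rose from 19.2 ± 3.37 to 128 ± 23.4 CPM (log2 2.74, SE 0.17, adjusted p = 5.74e-06), with a log2 of 0.91 on the collagen scale (adjusted p = 0.0180), and Clic1, a chloride intracellular channel protein, fell from 313 ± 19.5 to 166 ± 15.9 CPM (log2 -0.92, adjusted p = 0.000145). Alox5ap, which presents arachidonate to 5-lipoxygenase, fell (log2 -0.81, adjusted p = 0.043) but not with the mouse as a block (adjusted p = 0.0746), nor without any 1 of 5 libraries, both fractions' of mice 7 and 8 and the CD249+ of mouse 10 (0.0793 to 0.113).

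Of 15 genes tested for glutathione synthesis and reduction, 3 were higher, 4 lower and 8 did not pass (median log2 -0.19), beside 16.9% and 13.9% of all genes tested. Slc3a2, the heavy chain of the cystine transporter, fell from 578 ± 22.7 to 313 ± 34.5 CPM (log2 -0.88, adjusted p = 0.000233), and Gclm, the modifier subunit of the rate-limiting ligase, fell from 85.7 to 63.1 CPM (log2 -0.44, adjusted p = 0.0121). Glutaredoxin, Glrx, rose from 18.7 to 32.9 CPM (log2 0.82, adjusted p = 0.00306), and Me1, an NADPH-producing malic enzyme, from 13.4 to 37.5 CPM (log2 1.49, adjusted p = 0.0188). On the collagen scale the differences of Glrx and Me1 were -1.03 and -0.29. The Me1 call was lost on leaving out the CD249+ sample of mouse 10 (log2 1.19, adjusted p = 0.0556), mouse 7 (0.0709) or mouse 8 (0.0636), and that of Gclm without mouse 2 (0.0560) or mouse 8 (0.0643).

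Downstream of conjugation, 4 of 16 tested genes of glutathione breakdown and mercapturate formation were higher, 1 lower and 11 did not pass (median log2 0.25). Of all genes tested, 16.9% were higher and 13.9% lower. The gamma-glutamyltransferase relative Ggt7 went from 1.08 ± 0.413 to 10.5 ± 2.67 CPM (log2 3.28, adjusted p = 0.000144). Ggt1, which opens conjugate processing at the cell surface, was at 0.143 CPM in CD249-, where 1 library had no count, and at 4.66 CPM in CD249+ (adjusted p = 0.00151). Both were also called on the collagen scale, Ggt7 at a log2 of 1.51 (adjusted p = 0.0130) and Ggt1 with an adjusted p of 0.00128. Oplah, the 5-oxoprolinase, and Dpep1, a dipeptidase of the same route, had log2 differences of 1.32 (adjusted p = 0.001) and 1.53 (adjusted p = 0.0137), with -0.50 and -0.18 on the collagen scale; the call of Dpep1 was lost without mouse 8 (adjusted p = 0.0674). Of 7 conjugate exporters tested, 2 fell, beside 13.9% of all genes, and 5 did not pass. Abcc3 fell from 43.3 ± 8.86 to 18.7 ± 5.72 CPM (log2 -1.21, adjusted p = 0.0031) and Abcg2 from 65.6 to 43.9 CPM (log2 -0.58, adjusted p = 0.0194; 0.0534, 0.0734 and 0.0722 without mouse 7, 8 or 10), while Abcc1 was at 42.5 and 53.5 CPM and did not pass (log2 0.33, adjusted p = 0.0968), except without the CD249- library of mouse 2 (log2 0.44, adjusted p = 0.0440) or without that mouse (0.0287).

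Of 6 glutathione peroxidase genes tested, 5 were higher (median log2 0.92), beside 16.9% of all genes. On the collagen scale, where the median of all genes was -1.88, 4 of the 5 had negative differences. Gpx3, the secreted peroxidase, was at 257, 419, 205 and 476 CPM in CD249- and at 3514, 4095, 2246 and 4496 CPM in CD249+, with no overlap and mouse 8 lowest in both. It rose 10.6-fold (log2 3.40, SE 0.33, adjusted p = 6.14e-05) and was also called on the collagen scale, at a lower log2 of 1.66 (adjusted p = 0.000192). Prdx6 had a log2 difference of 1.06 (adjusted p = 0.000302), Gpx8 of 1.33 (adjusted p = 0.00608) and Gpx7 of 0.78 (adjusted p = 0.00709), against -0.76, -0.43 and -1.03 on the collagen scale. Without mouse 8 the calls of Gpx8 and Gpx7 were lost (adjusted p = 0.0545 and 0.0503).

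**Figure D4:**
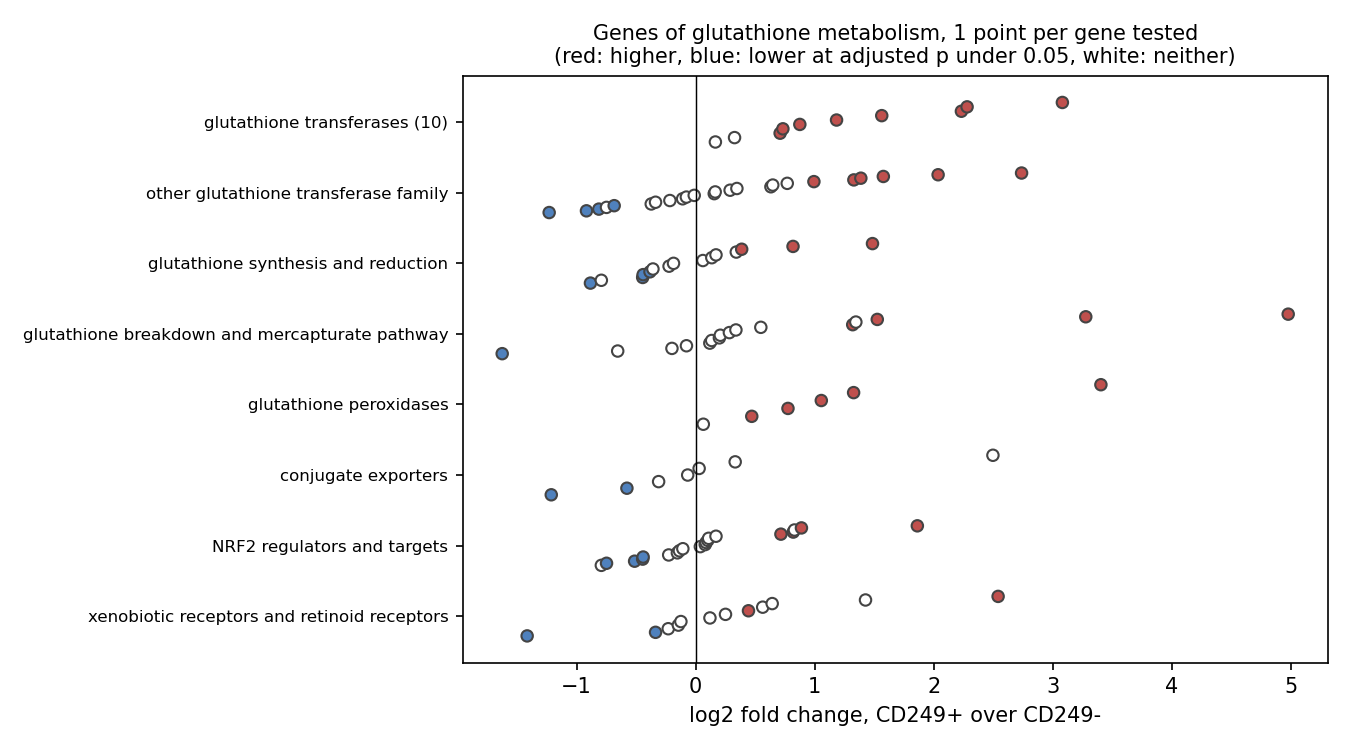
Log2 fold change (CD249+ over CD249-, edgeR, TMM scaling) of each tested gene of the 10 transferases and 7 related lists, 1 point per gene in each list, red where called higher, blue where called lower and white otherwise. Points of the peroxidase list lie to the right (median 0.92) and those of the synthesis list on both sides (median -0.19); on the core collagen scale the median of all genes is shifted by -1.85.

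Of 20 NRF2 regulators and targets, 4 were higher, 4 lower and 12 did not pass (median log2 0.06), shares near those of all genes tested (16.9% and 13.9%). Some of these genes are also in the synthesis list, so the counts of these lists are not independent, and Gclm is counted as lower in both. Nfe2l2 was at 200 and 182 CPM and did not pass (log2 -0.14, adjusted p = 0.330), nor did its classical target Nqo1, at 4.31 and 7.65 CPM (log2 0.83, adjusted p = 0.290). Osgin1, an oxidative stress-induced growth inhibitor, went from 8.23 to 29.9 CPM (log2 1.86, adjusted p = 0.00126; 0.00 with an adjusted p of 0.996 on the collagen scale) and thioredoxin reductase Txnrd1 from 58.4 to 95.9 CPM (log2 0.72, adjusted p = 0.000845; -1.16 on the collagen scale). Thioredoxin, Txn1, fell from 146 to 102 CPM (log2 -0.51, adjusted p = 0.000755), and Bach1, a repressor at antioxidant response elements, fell from 26.8 to 15.9 CPM (log2 -0.75, adjusted p = 0.0044).

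Of 12 xenobiotic and retinoid receptor genes tested, 2 were higher, 2 lower and 8 did not pass (median log2 0.19), again near the shares of all genes. Ahr, the aryl hydrocarbon receptor, fell from 316 ± 33.5 to 118 ± 24.3 CPM (log2 -1.42, adjusted p = 0.00011), while its partner Arnt was at 74.5 and 101 CPM (log2 0.44, adjusted p = 0.00263; -1.43 on the collagen scale). Rxrg rose from 0.413 to 2.40 CPM (log2 2.54, adjusted p = 0.0123), a call lost without mouse 10 (log2 2.18, adjusted p = 0.0750). Rara fell from 96.1 to 76.1 CPM (log2 -0.34, adjusted p = 0.0338), a call lost in 11 of 22 other fits, among them those without mouse 2, 8 or 10 (adjusted p = 0.164, 0.108 and 0.179) and with mice 7 and 8 alone (log2 -0.11, adjusted p = 0.655).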

How the data were processed

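Values in the authors' table are estimated counts, 12.0% of them not whole, and are not scaled. Tools listed without roles in the submitters' processing notes are RSEM 1.2.28, STAR 2.6.1, bcl2fastq 2.20, R 3.6.3 and DESeq2 1.26.0. GRCh38, the build in those notes, is human, while the identifiers are mouse; the mouse build used for counting is therefore not given in the sources used here. Per the labels' protocols, 10 ng of total RNA was amplified with oligo(dT) priming and sequenced as 75 bp single reads; without molecular identifiers, reads are not independent molecules. Columns named Ctrl and LIF were matched to CD249- and CD249+ samples through the sample descriptions.

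Counts were rounded; 92 spike-in entries, all at 0, were left out. edgeR 4.0.16 (filterByExpr by group, TMM, quasi-likelihood F test, two-sided, R 4.3.3) was fitted over 14524 genes passing the filter of 18572 with any count, with Benjamini-Hochberg adjustment and calls at an adjusted p under 0.05. Alternatives were a mouse block, library totals alone, DESeq2 size factors in edgeR, scaling to 8 core collagen genes, 2 other low-count filters, DESeq2 1.42.0, limma-voom (limma 3.58.1), subsets of mice and each library left out. Deviations from fraction means correlated within a mouse (r from 0.132 to 0.285) and less between mice (-0.212 to 0.0515), and the fractions come from the same lung, so the mouse numbers pair the libraries. Except where the block is named, p-values come from fits that treat the 2 fractions as unpaired. They measure the spread between mice within a fraction, and only the block fit uses the pairing. Gene coordinates and transcript lengths are from GENCODE M21 (GRCm38), in which 99.0% of identifiers were found; promoter sequences are from RefSeq. Shared 75-base windows were searched in the M21 transcripts on both strands. Kyat1, Kyat3, Gucy1a1, Nat8f1 and Gstp3 were matched by their older symbols. The fits were tested on simulated data. All 10 members are given. Of other lists, up to 4 called genes with the smallest p among those reaching 1 CPM in the higher fraction are named, and any transferase. Nfe2l2, Nqo1, Abcc1 and Enpep were added after their values were seen, and Alox5ap was also named outside this rule. The members and lists were chosen with earlier results of these data known.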

Additional observations from a re-analysis of the deposited data

Results flagged for a closer look

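Abcc3, an exporter of glutathione and glucuronide conjugates, was at 56.6 CPM in the CD249- library of mouse 2, against 38.6, 38.5 and 39.5 CPM in the CD249- libraries of mice 7, 8 and 10. The gap to the nearest library was 0.944 of the group's range, above the 95% critical value of Dixon's test for 4 values. It was the only one of 94 groups of 4 checked (47 genes in each fraction) to stand out so, and chance alone gives about 1 in 20. The 4 CD249+ libraries, at 12.1 to 23.8 CPM, were below every CD249- library with or without it.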

How the results depend on the processing

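The counts of called genes among all genes and among the members, and 47 genes (the 10 members, other transferases and the genes named from the pathway lists), were refitted in 22 other ways; counts of the other lists were refitted only with the block. Relative to 2455 genes higher and 2013 lower, scaling to the core collagens gave 345 higher and 11663 lower, mice 2 and 10 alone gave 570 and 98, mice 7 and 8 alone gave 1251 lower, and leaving out 1 library or mouse gave 1777 to 2479 higher and 1201 to 1979 lower, the lowest of these without mouse 8, 10 or 7 (1201, 1291 and 1341). Relative to 8 members higher and 0 lower, the core collagens gave 1 and 5, mice 2 and 10 alone 2 and 0, and leaving out 1 library or mouse 6 to 9 and 0. With mouse as a replicate block, 9 members were higher and 0 lower, and 2809 genes were higher and 2489 lower in all; among the 47 genes the block added Gstm1, Gstp2 and Gstz1 to those called, removed Alox5ap and Gstm6 and changed no other call. Among the 47 genes, directions reversed only on the core collagen scale, where the log2 differences were -1.55 (Gstm1), -0.98 (Gstm2), -0.58 (Gstm5), -1.09 (Gstt3), -1.71 (Gstp1), -1.08 (Gsto1), -0.23 (Mgst1), -0.42 (Gstm4), -0.47 (Gstm6), -0.31 (Gstm7), -0.98 (Gstp2), -1.21 (Gstz1), -0.87 (Gstk1), -1.03 (Glrx), -0.29 (Me1), -0.50 (Oplah), -0.18 (Dpep1), -0.76 (Prdx6), -0.43 (Gpx8), -1.03 (Gpx7), -1.16 (Txnrd1), -1.43 (Arnt), -0.89 (Nqo1) and -1.59 (Abcc1). That scaling divides by genes that were themselves higher in CD249+; whether the collagens or the total is the better reference was not tested. The fits on mice 2 and 10 or mice 7 and 8 have 4 libraries each. The limits are 4 mice, amplified reads, and genes at a few CPM, such as Gsta4 in CD249- and Gstm6, where counts are low.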
